A study of Mus musculus with 7 samples.

Results

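The genes studied here build the motile cilium. They were taken by name from the table of mouse genes as the dynein heavy chains (Dnah), radial spoke head genes (Rsph), dynein assembly factors (Dnaaf), cilia and flagella associated proteins (Cfap), tektins (Tekt1 to Tekt5), Spef1, Spef2, Hydin, Ak7 and the transcription factor Foxj1. The rule gave 49 members of 19257 named genes, and it used no measured value. Of the members, 34 had a mean of at least 10 normalized counts over the libraries and entered the test across 14782 genes. The other 15 had means of 0.495 to 9.92 and are Cfap52, Cfap53, Cfap57, Cfap58, Cfap61, Cfap70, Cfap221, Dnaaf1, Dnah17, Hydin, Rsph6a, Rsph14, Spef2, Tekt2 and Tekt3.

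RNA was sequenced in bulk from endpoint tumors of a mouse glioma model, with 1 library per brain, and the question was how GPC6, a glypican, alters such tumors. In both groups a CRISPR-Cas9 construct aimed at tumor suppressors that include Nf1 and Trp53 was combined with a piggyBac GFP reporter, delivered by in utero electroporation into progenitors lining the lateral ventricle. The 3xCR group, labelled as the control genotype, had nothing further (replicates 2, 3 and 4, n = 3). The GPC6 group additionally carried piggyBac overexpression of GPC6 (replicates 1 to 4, n = 4). The mice were of CD-1 and C57BL/6 background and of both sexes, and neither the strain, the sex nor the age at collection is given per library. Tissue was cut out under fluorescence, so each library also holds host brain, and in bulk tissue a difference in the number of ciliated cells cannot be told apart from a difference in RNA per cell. Nothing names a litter, day or batch, so a p-value measures only the spread between these brains.

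A motile cilium beats because dynein motors slide the paired microtubules of its shaft, the axoneme, against each other. Outer dynein arms give power, inner arms shape the bend, and radial spokes and the central apparatus control both. In the brain such cilia stand in tufts on ependymal cells, which line the ventricles and move cerebrospinal fluid, and FOXJ1 together with the RFX factors turns on the genes that build them.

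RFX factors bind a sequence called the X-box. It was searched for as GTNNCCNGNAAC, GTNNCCNNGNAAC, GTNNCCNNNGNAAC or GTNNCCNNNNGNAAC, on both strands, in the 250 bases before each RefSeq gene start of GRCm38.p6. Promoters of 43 of the 49 members were in the RefSeq set, and 11 of the 43 genes (25.6%) held a match, beside 5.04% of 27025 genes with a promoter and 5.73% of the genes tested. The forkhead core TGTTTAC, the kind of site FOXJ1 binds, was found in 5 of 43 (11.6%) beside 3.54% of all, and Dnah17 alone held both, at separate positions. The 100 bases before the start are shown, 5′ to 3′, for 6 members that hold the X-box close to it, with the match in capitals. They were chosen to cover a central apparatus protein, a tether protein, proteins inside the microtubule doublet, an outer arm motor and an assembly factor.
Hydin, chr8:110266877-110266976, plus strand: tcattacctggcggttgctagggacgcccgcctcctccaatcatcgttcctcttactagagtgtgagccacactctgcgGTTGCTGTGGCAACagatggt
Cfap44, chr16:44394699-44394798, plus strand: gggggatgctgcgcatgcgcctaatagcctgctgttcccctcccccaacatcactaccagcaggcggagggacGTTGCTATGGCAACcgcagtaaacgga
Cfap45, chr1:172521030-172521129, plus strand: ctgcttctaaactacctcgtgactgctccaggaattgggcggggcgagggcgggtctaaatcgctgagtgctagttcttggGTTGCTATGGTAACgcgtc
Tekt2, chr4:126325689-126325788, minus strand: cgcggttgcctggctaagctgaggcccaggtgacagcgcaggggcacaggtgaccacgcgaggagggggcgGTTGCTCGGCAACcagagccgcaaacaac
Dnah9, chr11:66168552-66168651, minus strand: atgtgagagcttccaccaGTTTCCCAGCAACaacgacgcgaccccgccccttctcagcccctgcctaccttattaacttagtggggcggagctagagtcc
Dnaaf2, chr12:69198430-69198529, minus strand: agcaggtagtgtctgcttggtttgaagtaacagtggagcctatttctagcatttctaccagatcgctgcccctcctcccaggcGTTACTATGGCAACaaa
A match is a run of letters and no proof of binding. Among members with a promoter, the X-box was found in 4 of 21 whose levels spanned at least 2 log2 units over the 7 libraries, in 2 of 9 that spanned less, and in 5 of 13 that were not tested.

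The libraries held 7197692 to 18879762 reads on genes, and the members took 2499 to 6708 of these, 0.03% to 0.0493%. Gpc6 itself followed the labels, at 217, 226 and 126 normalized counts in 3xCR replicates 2 to 4 and at 675, 263, 3434 and 5084 in GPC6 replicates 1 to 4. The groups did not overlap, and the exact two-sided permutation p was 0.057, which is the least that 3 against 4 libraries can give, but GPC6 replicate 2 lay only a little above the highest 3xCR tumor. Normalized counts are reads divided by a size factor per library, and they are not corrected for gene length.

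No member passed the test between GPC6 and 3xCR. Of the 34 tested, 0 were at an unadjusted p under 0.05 in limma, the linear model fitted across all genes, against 4.66% of all genes tested, and no gene of the 14782 passed after Benjamini-Hochberg adjustment. At the unadjusted threshold edgeR and voom also placed 0 members (6.7% and 3.38% of all genes), and so did limma without GPC6 replicate 1 (3.17%), while DESeq2 placed 1, Spef1, beside 9.77% of the genes it tested. With estimated weights per library 9 members passed, beside 34.5% of all genes. In the mean of log2 values, 18 members were higher in GPC6 tumors and 16 lower. Their median log2 fold change was 0.08, beside -0.02 for all genes tested. Here and below, higher or lower in mean refers to this log2 scale, unless another fit is named. Means of the counts can go the other way, as for Foxj1, at 173 in GPC6 and 150 in 3xCR against a log2 fold change of -0.13. The standard errors of the members were wide, with a median of 0.66 on the log2 scale against 0.38 for all genes. A difference of about 1 standard error is not detectable, and clearly larger ones can be missed. That of Cfap74, 1.15 with a standard error of 0.75, did not pass the unadjusted threshold. Only 1 tested member, Spef1, had groups that did not overlap, beside 6.32% of all genes.

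Single GPC6 tumors were often at the extremes. GPC6 replicate 1 was the highest of the 7 libraries for 21 of the 34 members (61.8%), where it was the highest for 31.3% of all genes tested. It was the lowest for 2 members (5.88%), where it was the lowest for 31.3% of all genes. This library, with the fewest reads on genes (7197692), was thus often at an extreme in either direction among all genes. GPC6 replicate 2 was the lowest for 13 of 34 (38.2%), where it was the lowest for 11.5% of all genes. Both held at once for 11 members (Cfap44, Cfap45, Cfap46, Cfap69, Cfap126, Dnah9, Foxj1, Rsph1, Rsph4a, Tekt1 and Tekt4), a combination shared by 5.20% of all genes tested. The filter used the mean over all 7 libraries, for members and all genes alike, so GPC6 replicate 1 could carry a weak gene past it. Without this tumor the means of Cfap44, Cfap45, Dnah11 and Tekt4 would have been under 10 normalized counts. Without GPC6 replicate 1 the median log2 fold change of the members was -0.19 and 10 were higher, and without GPC6 replicate 2 it was 0.39 and 24 were higher. The sign of the median thus turned with single tumors. Fits of edgeR and DESeq2, which average on the count scale, gave 26 of 34 members higher from the same reads. The summed level of all 49 members was 3677, 3742 and 3452 normalized counts for the controls (replicates 2 to 4) and 5479, 3455, 3859 and 3297 for GPC6 replicates 1 to 4. Only GPC6 replicate 1 stood clear of the others.

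**Figure D1:**
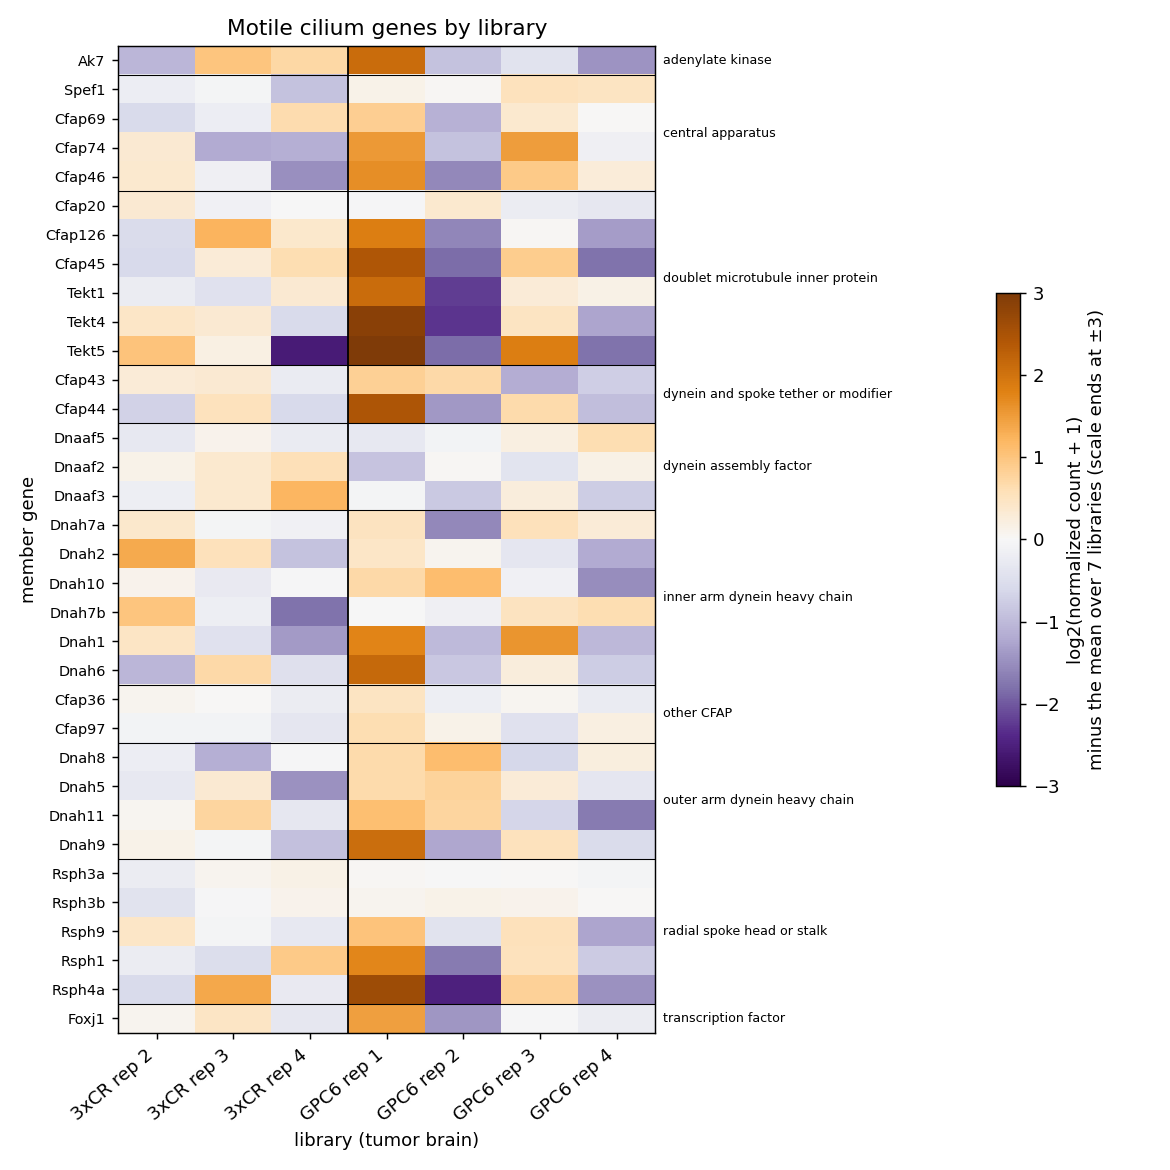
Level of each of the 34 tested members (rows, grouped by role) in each library (columns), as log2(normalized count + 1) after subtraction of the gene's own mean. The column of GPC6 replicate 1 is high for most rows and that of GPC6 replicate 2 is low for many, while rows such as Rsph3a and Rsph3b are nearly even.

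The members fell into even and uneven genes. Over the 7 libraries, 24 of the 34 (70.6%) spanned at least 2 log2 units from the lowest to the highest, against 34.9% of all genes tested. This division was made after the values were seen and is a description. The 24 summed to 772, 787 and 612 normalized counts in the 3xCR tumors 2 to 4, and to 2009, 440, 944 and 442 in the GPC6 tumors 1 to 4. The even 10 (Cfap20, Cfap36, Cfap43, Cfap69, Cfap97, Dnaaf2, Dnaaf5, Rsph3a, Rsph3b and Spef1) summed to between 2786 and 3294 in every library. Level moves with this: the 23 members with a mean of 10 to 50 normalized counts had a median range of 3.14 log2 units, where the 2150 genes of that level had 2.74. The 11 members with a mean of 50 or more had 1.06, where genes of that level had 1.35. Wide ranges of the weakly expressed members were therefore only somewhat above those of other weakly expressed genes.

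Foxj1, the master regulator of motile ciliation (GRCm38 chromosome 11, 116330704 to 116335399, minus strand), was at 148, 192 and 110 normalized counts in the 3xCR tumors (in order, replicates 2 to 4). In GPC6 replicates 1 to 4 it was at 386, 51.4, 135 and 118. The highest and the lowest tumor were both GPC6 tumors and the other 2 lay among the controls, so the groups overlapped. Its log2 fold change was -0.13 ± 0.62 (SE, limma, unadjusted p = 0.84), and -0.64 without GPC6 replicate 1. Ak7, an adenylate kinase that supplies the axoneme with energy-rich nucleotide, was at 7.13, 32.6 and 26.2 in 3xCR and at 71.1, 7.9, 11.5 and 5.14 in GPC6. It too was highest in GPC6 replicate 1 and otherwise higher in 2 of the 3 controls than in the GPC6 tumors, with a log2 fold change of -0.39 ± 0.96 (SE).

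**Figure D2:**
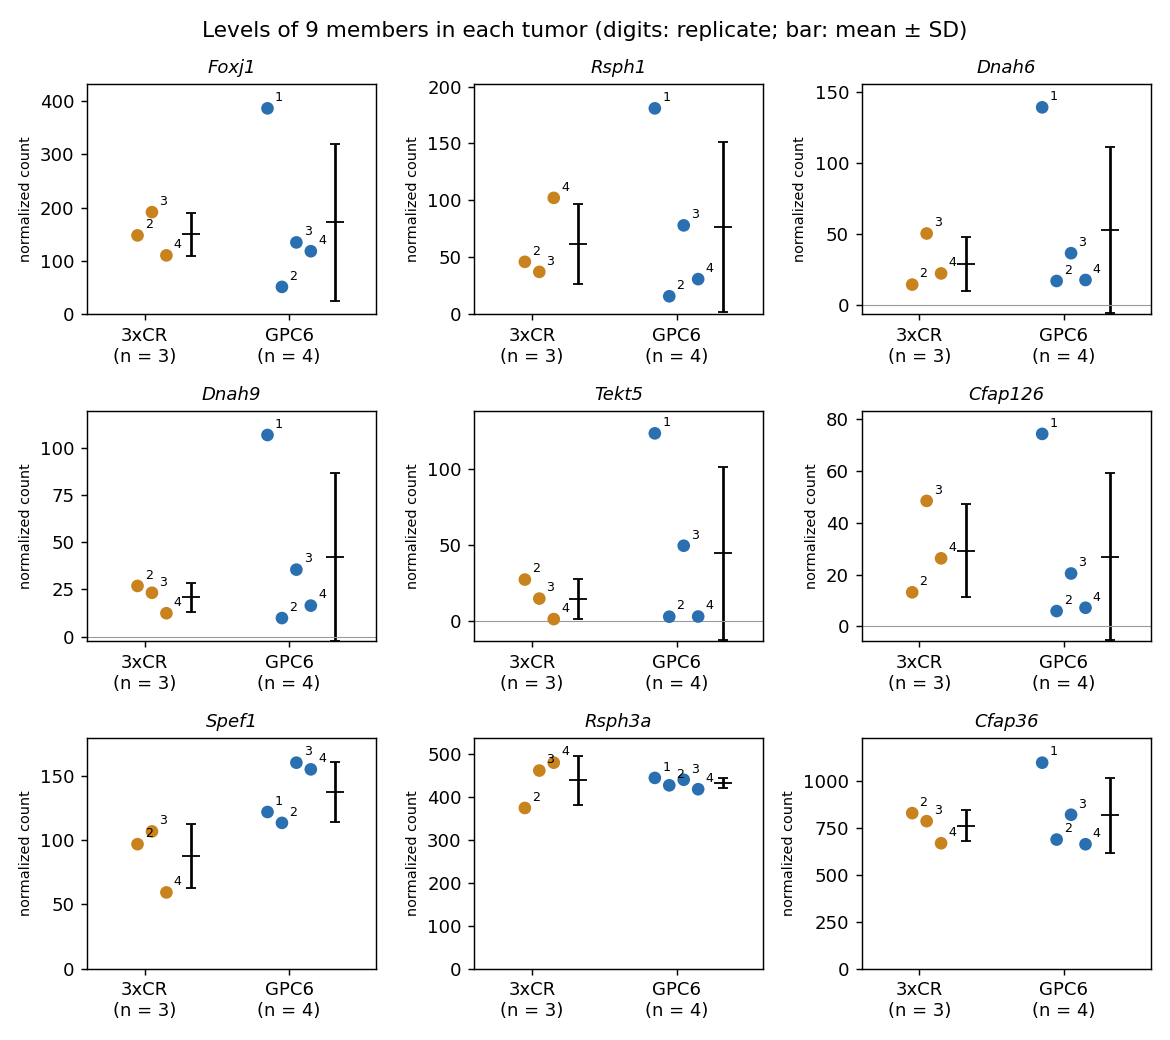
Normalized counts (linear axes) of 9 members in each tumor, 3xCR in orange and GPC6 in blue, with the replicate number beside each point and the mean ± SD of each group to its right. GPC6 replicate 1 is the top point for Foxj1, Rsph1, Dnah6, Dnah9, Tekt5, Cfap126 and Cfap36, Rsph3a is even, and Spef1 is the panel where the 4 GPC6 points lie above the 3 controls.

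The central apparatus is the pair of single microtubules, with its projections, at the axoneme's core. All 4 of its tested members were higher in mean in GPC6 tumors, none past the test, with a median log2 fold change of 0.71 (0.52 without GPC6 replicate 1, where 3 of the 4 were higher). Spef1, a microtubule-binding protein of this structure, was at 97, 107 and 59.4 normalized counts in 3xCR and at 122, 114, 161 and 155 in GPC6. Every GPC6 tumor was above every 3xCR tumor, by 0.67 ± 0.32 on the log2 scale (SE, limma, unadjusted p = 0.067, adjusted p = 0.73; exact two-sided permutation p = 0.057). The difference was 0.73 without GPC6 replicate 1. Of the exon length of Spef1, 12.7% lies opposite to Cdc25b and a second gene, and whether counting used strand is not stated; Cdc25b had a log2 fold change of -0.28. Cfap74 had the highest log2 fold change of all tested members, 1.15 ± 0.75 (SE, limma, unadjusted p = 0.17). It was at 36.2, 12.1 and 12.4 in 3xCR and at 85, 14.8, 81.6 and 25.7 in GPC6, so 2 GPC6 tumors stood above the rest and the others overlapped the controls. Cfap69 had the smallest difference of the class, 0.07 ± 0.62 (SE).

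Hydin, Spef2 and Cfap221, also of the central apparatus, were too low to test. Hydin, a giant projection protein whose loss causes hydrocephalus in mice, was at 2.19, 4.65 and 1.38 normalized counts in 3xCR and at 15.5, 0, 7.98 and 1.03 in GPC6. Spef2 was at 4.38, 12.1 and 9.67 in 3xCR and at 21.6, 1.98, 6.21 and 6.17 in GPC6. Both were highest in GPC6 replicate 1 and lowest in GPC6 replicate 2. A count of 0 in GPC6 replicate 2 allows up to 2.96 normalized counts, and the limits given by counts cover counting error only. Cfap221 reached at most 3.09.

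Radial spokes reach from the microtubule doublets to the central apparatus. Their 5 tested members had a median log2 fold change of -0.06, with none past the test. In mean log2 level 1 was higher and 4 lower (4 higher in edgeR). Rsph1, a protein of the spoke head, was at 46, 37.2 and 102 in 3xCR and at 181, 15.8, 78.1 and 30.9 in GPC6. Rsph4a, also of the head, was at 6.58, 27.9 and 8.29 in 3xCR and at 69.6, 0.988, 18.6 and 3.09 in GPC6, a range of 5.15 log2 units and the lowest log2 fold change of the class, -0.30 ± 1.27 (SE). In both, the extremes were GPC6 replicates 1 and 2 and the controls lay between them.

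Rsph3a and Rsph3b behaved otherwise. Rsph3a was at 375, 462 and 481 in 3xCR and at 445, 428, 441 and 419 in GPC6, the narrowest range of the members tested, 0.36 log2 units. Rsph3b was at 314, 405 and 449 in 3xCR and at 441, 454, 451 and 419 in GPC6, with the highest log2 fold change of the class, 0.20 ± 0.20 (SE). The pair shares much of its sequence: 54.4% of the 50-base windows of Rsph3a occur in Rsph3b, so reads could have been split between the copies and each value is uncertain. Rsph6a, a copy of Rsph4a known from testis, had at most 1.55 normalized counts, and Rsph14 at most 6.21.

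The dynein heavy chains are the motors themselves. Of the outer arm, 3 of the 4 tested chains were higher in mean in GPC6 tumors, with a median log2 fold change of 0.65 (0.28 without GPC6 replicate 1) and none past the test. Dnah9 was at 26.9, 23.3 and 12.4 in 3xCR and at 107, 9.88, 35.5 and 16.5 in GPC6. As with Foxj1, GPC6 replicates 1 and 2 were its highest and lowest tumors. Dnah5, loss of which causes primary ciliary dyskinesia, had the highest log2 fold change of the outer arm, 0.82 ± 0.59 (SE), from 17, 27 and 6.91 in 3xCR and 34, 36.6, 25.7 and 16.5 in GPC6. Dnah8 was close to it, at 0.80 ± 0.64 (SE). In these genes GPC6 replicate 2 was the highest tumor, unlike for Dnah9. Dnah11 had the lowest difference, -0.29 ± 0.83 (SE), and Dnah17 was under the filter at 4.93 to 14.4 normalized counts.

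The 6 inner arm chains were all tested, 4 higher and 2 lower in mean, with a median log2 fold change of 0.29 that was -0.14 without GPC6 replicate 1. Dnah6 was at 14.3, 50.2 and 22.1 in 3xCR and at 139, 16.8, 36.4 and 17.5 in GPC6. Dnah1 was at 42.2, 22.3 and 11.1 in 3xCR and at 105, 14.8, 93.1 and 14.4 in GPC6, the highest difference of the inner arm, 0.78 ± 0.89 (SE). Here GPC6 replicates 1 and 3 were both above every control and replicates 2 and 4 were within the control range. Dnah2, at 82.2, 46.5 and 16.6 in 3xCR and 43.3, 33.6, 24.8 and 13.4 in GPC6, had the lowest, -0.58 ± 0.65 (SE). Dnah7a and Dnah7b share 38.6% and 30.0% of their 50-base windows with other genes, chiefly each other and Dnah7c, and are uncertain for that reason. Dnah10 was highest in GPC6 replicate 2, at 75.1.

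Dynein arms are put together in the cytoplasm by assembly factors before they enter the cilium. The 3 tested here did not follow Foxj1, as none of them was highest in GPC6 replicate 1. Dnaaf2 was at 161, 192 and 221 in 3xCR and at 80.4, 152, 114 and 164 in GPC6, a log2 fold change of -0.62 ± 0.32 (SE, limma, unadjusted p = 0.091) in which GPC6 replicate 1 was the lowest tumor. Of its exon length, 38.7% is also annotated to Gm49383 and Gm49384 on the same strand, which makes its count uncertain. Dnaaf3 had the lowest log2 fold change of the members tested, -0.80 ± 0.50 (SE, limma, unadjusted p = 0.15), from 31.2, 45.6 and 82.9 in 3xCR and 34, 19.8, 42.6 and 20.6 in GPC6. Its highest tumor was a control and the groups overlapped. Dnaaf5 was at 119 to 155 in 3xCR and 117 to 222 in GPC6 (0.25 ± 0.30, SE). Dnaaf1 stayed at or under 2.66 except in GPC6 replicate 1, at 13.9, and 20.7% of its exon length lies opposite to Taf1c.

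The largest class, the 10 proteins inside the doublet microtubules, showed the widest ranges. Of the 6 tested, 2 were higher and 4 lower in mean log2 level (4 higher in edgeR). Their median log2 fold change was -0.11, and -0.76 without GPC6 replicate 1. Tekt5, a filament-forming tektin best known from sperm tails, was at 27.4, 14.9 and 1.38 in 3xCR and at 124, 2.96, 49.7 and 3.09 in GPC6. It spanned 5.71 log2 units, the most of any tested member, and its difference of 0.80 ± 1.47 (SE) was the highest of the class. Tekt4 was at 12.1, 11.2 and 5.53 in 3xCR and at 69.6, 0.988, 12.4 and 3.09 in GPC6. Cfap126 had the lowest difference, -0.62 ± 0.92 (SE), from 13.2, 48.4 and 26.2 in 3xCR and 74.2, 5.93, 20.4 and 7.2 in GPC6. GPC6 replicate 3 lay within the control range of Cfap126, replicates 2 and 4 below it and replicate 1 above it. Cfap20, the most abundant of the class, was at 505 to 706 in 3xCR and 443 to 714 in GPC6 (-0.12 ± 0.24, SE). Cfap52, Cfap53, Tekt2 and Tekt3 were below the filter, and of these Cfap52, Tekt2 and Tekt3 were highest in GPC6 replicate 1, at 24.7, 35.6 and 3.09.

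Cfap43 and Cfap44 tether the inner dyneins to the doublet. Cfap44 was at 3.84, 10.2 and 4.14 in 3xCR and at 41.7, 1.98, 11.5 and 3.09 in GPC6 (0.46 ± 1.04, SE). Cfap43 was at 30.7, 31.6 and 20.7 in 3xCR and at 44.8, 40.5, 10.6 and 14.4 in GPC6 (-0.22 ± 0.62, SE). The partners thus differed in the order of the tumors, with GPC6 replicate 2 the lowest for Cfap44 and the second highest for Cfap43. Cfap57, Cfap61 and Cfap70 were below the filter, and Cfap70 was highest in GPC6 replicate 4, at 25.7. Among the Cfap genes given no class, Cfap36 was at 670 to 831 in 3xCR and 665 to 1101 in GPC6 (0.08 ± 0.23, SE), and Cfap97 at 186 to 223 and 175 to 365 (0.30 ± 0.29, SE). Cfap58, not tested, was at 1.64, 2.79 and 2.76 in 3xCR and at 1.55, 0, 0.887 and 0 in GPC6, groups that did not overlap, lower in GPC6 (3.52% of all genes tested), but that rest on few reads.

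**Figure D3:**
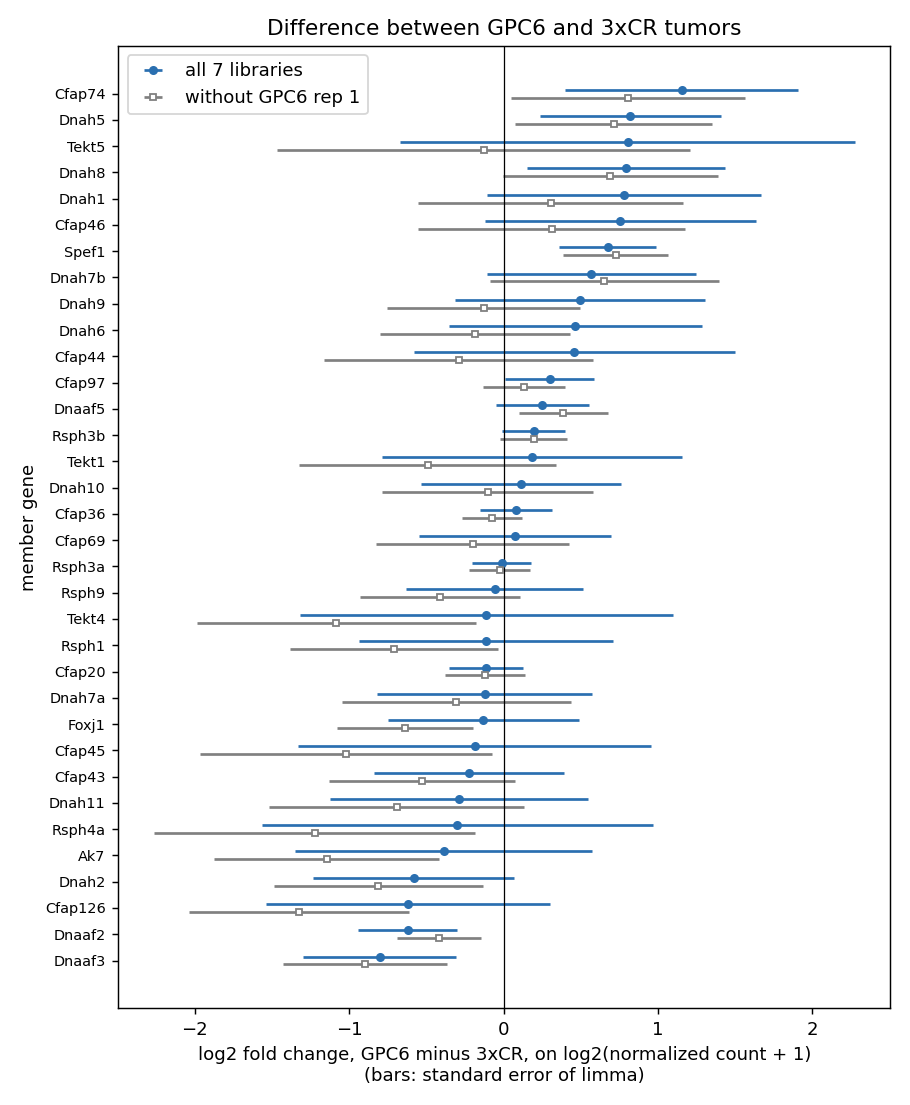
Log2 fold change of GPC6 over 3xCR tumors for the 34 tested members, with the standard error of limma as bars, from all 7 libraries (filled) and without GPC6 replicate 1 (open). Without that tumor most points lie further left, and 10 of 34 remain above 0 against 18 with it.

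Levels between genes were compared per kilobase of exon. The mean level over all libraries was 290 normalized counts per kilobase for Cfap36, 145 for Rsph3a, 135 for Rsph3b and 126 for Cfap20, and 62.1 for Foxj1. All 11 heavy chains were between 0.481 (Dnah8) and 3.32 (Dnah1). The summed level given above is in normalized counts that are not corrected for length, and most of it is that of the even members. In it the inner arm heavy chains held 99.4 to 385 per library and the outer arm chains 51.1 to 187, of 3297 to 5479 for all members. Beside Foxj1 in the same library, Rsph3a was lowest in GPC6 replicate 1, at 1.15 times the count of Foxj1, and highest in GPC6 replicate 2, at 8.33 times. Tekt4 went the other way, at 0.18 times the count of Foxj1 in GPC6 replicate 1 and 0.0192 times in GPC6 replicate 2, where it rests on 1 read. These ratios were chosen after the values were seen.

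**Figure D4:**
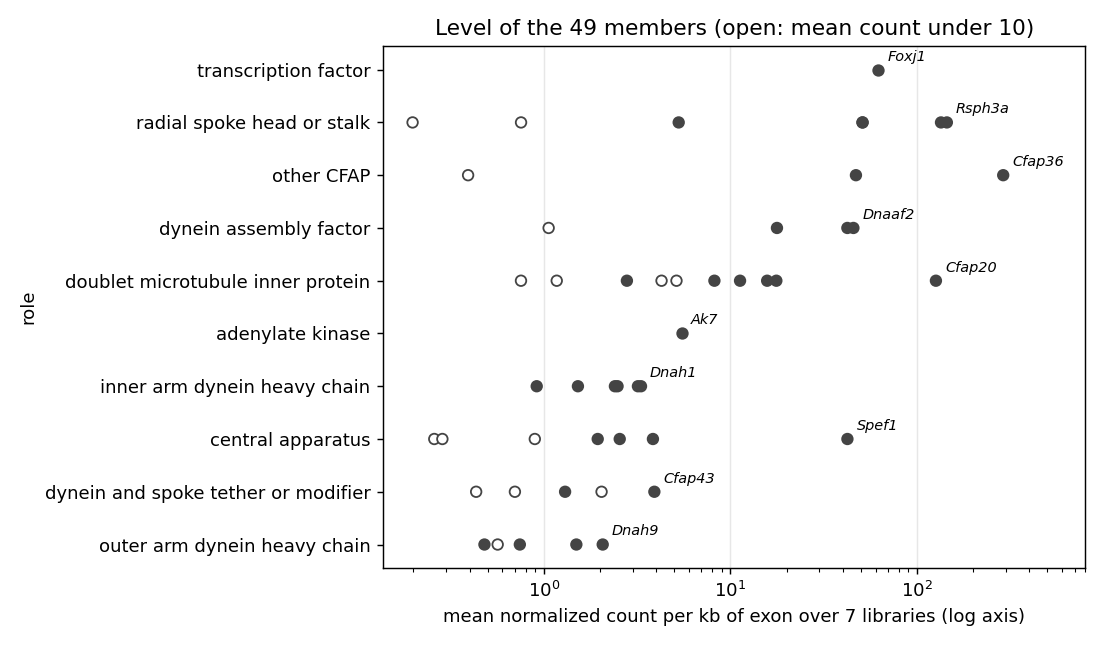
Mean normalized count per kilobase of exon over the 7 libraries (log axis) for each of the 49 members, by role, with open circles for members under the filter and the highest member of each role named. Cfap36, Rsph3a, Rsph3b and Cfap20 lie above 100, and every dynein heavy chain lies below 4.

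GPC6 replicate 1 exceeded the median of the other 6 tumors by 13.8 times for Tekt5, 10.5 for Cfap44, 9.36 for Rsph4a, 8.34 for Tekt4, 7.32 for Ak7, 7.03 for Dnah6 and 3.05 for Foxj1. For Rsph3a the ratio was 1.02 and for Dnaaf2 it was 0.496. Cfap44 and Tekt4 passed the filter only with GPC6 replicate 1 included. Among the other 6 tumors, GPC6 replicate 3 was the highest for 11 of the 34 members (32.4%, beside 19.7% of all genes) and GPC6 replicate 2 the lowest for 13 (38.2%, beside 17.4%).

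Other genes of the same machinery, from lists the name rule does not take, were read from the same fit. Of the regulators of multiciliation, 10 of 14 in the table were tested, 6 higher and 4 lower in mean, none past the test, with a median log2 fold change of 0.07. Gmnc and Mcidas, which start the program, were at or near 0 apart from 12.4 for Gmnc in GPC6 replicate 1, and Mcidas reached 1.55 there and 2.66 in GPC6 replicate 3. Ccno, which acts in centriole amplification, was at 9.32, 5.58 and 2.76 in 3xCR and at 21.6, 1.98, 15.1 and 1.03 in GPC6. Trp73, an activator of Foxj1, was at 3.29, 13 and 13.8 in 3xCR and at 34, 0, 14.2 and 0 in GPC6, a difference within its standard error of 1.45. Gmnc, Ccno and Trp73 were highest in GPC6 replicate 1, as Foxj1 was, but unlike Foxj1 they were at least as low in GPC6 replicate 4 as in replicate 2, and all were low counts.

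Rfx1 was the most even of the 4 RFX factors, while Rfx2 and Rfx4 varied widely between tumors. Rfx1 was at 125, 133 and 131 in 3xCR and at 178, 133, 135 and 157 in GPC6, with a log2 fold change of 0.21 ± 0.24 (SE, limma, unadjusted p = 0.42). Its groups only just did not overlap, 1 of the 10 tested regulators, where 2.80% of all genes had such groups in that direction. Rfx2 was at 13.8 to 42.2 in 3xCR and 11.9 to 61.8 in GPC6 (0.02 ± 0.67, SE). Rfx3 was at 73.2 to 189 and 178 to 233 (0.63 ± 0.36, SE), and Rfx4 at 84.3 to 376 and 219 to 354 (0.60 ± 0.48, SE). None of the 4 passed the test. The log2 fold changes of the remaining regulators were 0.12 for Myb, 0.16 for E2f5, -0.33 for E2f4 and -0.30 for Ccdc78, and Cdc20b was near 0.

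Among dynein arm subunits and docking proteins, 6 of the 10 tested were higher and 4 lower in mean (median log2 fold change 0.14), none past the test, and 9 of the 10 were highest in GPC6 replicate 1. Ccdc151, a docking factor of the outer arm, was at 6.58, 7.44 and 4.14 in 3xCR and at 52.6, 8.89, 26.6 and 8.23 in GPC6. Dnaic2, an intermediate chain, was at 48.2, 54 and 45.6 in 3xCR and at 97.4, 92.9, 55.9 and 57.6 in GPC6. The groups overlapped for neither, 2 of the 10 tested and both higher in GPC6, where 2.80% of all genes had such groups in that direction. Their log2 fold changes were 1.47 ± 0.77 and 0.57 ± 0.35 (SE, limma, unadjusted p = 0.093 and 0.14). Dnali1 had the lowest difference, -0.46, and Dnal4, the most abundant, was at 202 to 475. Of the further assembly factors, 4 were higher and 4 lower (median -0.07), from Lrrc6 at 1.92 ± 0.86 (SE, limma, unadjusted p = 0.056) to Pih1d2 at -0.38, with Ruvbl2 the most abundant at 377 to 1466. GPC6 replicate 1 was the highest tumor for 4 of these 8, Zmynd10, Lrrc6, Dyx1c1 and Pih1d2 (50%, beside 31.3% of all genes tested). For Pih1d1, Ruvbl1 and Ruvbl2 it was the lowest. For the ruler and nexin link genes, 5 of 7 were higher and the median was 0.32 (-0.37 without GPC6 replicate 1). They ran from 0.77 for Ccdc39 to -1.10 for Drc7, with Gas8 the most abundant. For spoke and central pair genes outside the name rule, 2 of 5 were higher and the median was -0.21 (-0.52 without GPC6 replicate 1), from Nme5 at 0.01 to Spag6 at -0.31. None of these passed the test.

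Intraflagellar transport builds primary and motile cilia alike. Of its 28 genes, all tested, 21 were higher and 7 lower in mean in GPC6 tumors, with a median log2 fold change of 0.22 that was 0.06 without GPC6 replicate 1. The unadjusted test passed 1 of the 28, where it passed 4.66% of all genes, and this was Kifap3, a subunit of the kinesin-2 motor, at 1029, 749 and 493 in 3xCR and at 2278, 1198, 1561 and 891 in GPC6 (0.95 ± 0.38, SE, limma, unadjusted p = 0.037). Groups did not overlap for 4 of the 28 genes, Ift122, Wdr19, Wdr35 and Dync2h1, all higher in GPC6, where 2.80% of all genes had such groups in that direction. The differences of these 4 were 0.53 to 0.73 on the log2 scale. Kif17, a kinesin also used in dendrites, had the highest, 1.49, and Ift43 the lowest, -0.56.

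Markers of the ciliated and neighbouring cells were read in the same libraries. All 19 ependymal genes outside the name rule were present, and 11 were tested. Of these 11, 4 were higher and 7 lower in mean log2 level (7 higher in edgeR), none past the test. Their median log2 fold change was -0.15 (-0.88 without GPC6 replicate 1). Their median level, as log2 relative to each gene's mean, was -0.82, 0.75 and 0.17 over 3xCR replicates 2 to 4 and 2.01, -1.55, 0.29 and -0.56 over GPC6 replicates 1 to 4. The 34 tested members were at -0.02, 0.05 and -0.26 over the same 3xCR replicates and at 0.94, -0.82, 0.27 and -0.43 over the GPC6 replicates. The 24 uneven ones, picked for their wide range, were at 0.07, 0.24 and -0.33 and at 1.70, -1.10, 0.49 and -0.86. Dynlrb2 and Zmynd10 of the ependymal list were also counted among the dynein arm subunits and the assembly factors. The ependymal list is thus in part a list of cilium genes. In these medians, GPC6 replicate 1 was the highest and replicate 2 the lowest for the ependymal genes and for the 34 members. By contrast, 3xCR replicate 2 was low for the ependymal genes and not for the members. Of the 11 ependymal genes, 7 were highest in GPC6 replicate 1. Tmem212, a defining ependymal gene, was at 3.29, 21.4 and 12.4 in 3xCR and at 68, 0, 15.1 and 0 in GPC6. The other tested markers, Mia, Mlf1, Rarres2 and Cd24a, were all highest in a 3xCR tumor. In 3xCR replicate 3 and GPC6 replicate 1, Mia was at 62.3 and 29.4, Mlf1 at 64.2 and 23.2, and Rarres2 at 134 and 89.6. The most abundant marker, Cd24a, which other cells also carry, was at 309 to 2275 in 3xCR and 277 to 1092 in GPC6. Enkur and Mia had the highest and lowest differences, 0.75 and -1.29. None of the 19 genes was at 0 in all libraries. Tmem212, Pifo, Sntn and Stoml3, of which only Tmem212 was tested, were at 0 in GPC6 replicates 2 and 4. Sntn was also at 0 in 3xCR replicate 2.

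Choroid plexus genes were highest in GPC6 replicate 1 for 11 of 15 tested. In GPC6 replicate 3, however, their median was -0.73, where that of the 34 tested members was 0.27. Ttr, its main secreted product, was at 129, 3240 and 1840 in 3xCR and at 11813, 10.9, 31.9 and 20.6 in GPC6. Its log2 fold change was -3.20 ± 2.39 (SE), the lowest of the list, and Enpp2 had the highest, 0.45. The list's median was -1.06 and -2.02 without GPC6 replicate 1, with 2 higher and 13 lower (7 higher in edgeR) and none past the test. GPC6 replicate 1 also held 541 normalized counts of Avp, a peptide of hypothalamic neurons, where the other libraries had 0 to 7.1, and its pan-neuronal markers were at a median of 2.49 log2 units above their means. Of the 12 pan-neuronal genes all were higher in GPC6 in mean (median 1.62, 0.97 without GPC6 replicate 1). The unadjusted test passed 2 of the 12 as higher, where it passed 2.74% of all genes, namely Snap25 (3.02 ± 1.21, SE) and Nefm (1.63 ± 0.68, SE), and Stmn2 had the lowest difference, 0.16. Proliferation markers were lowest in GPC6 replicate 1, at a median of -2.87 against -0.18 to 1.04 elsewhere. The part of ventricle lining, choroid plexus and neurons in the tissue taken in the levels of the motile cilium genes was not tested.

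**Figure D5:**
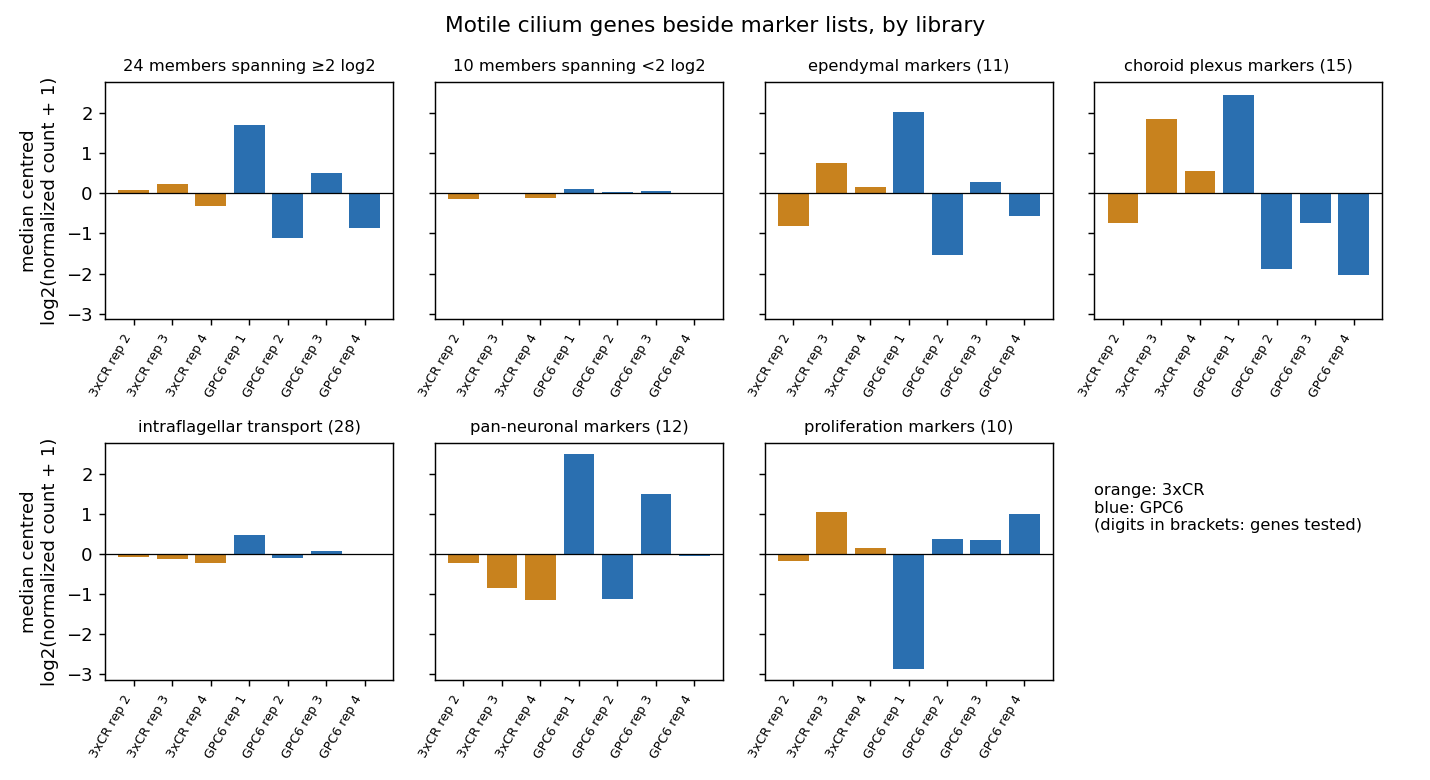
Median over genes of log2(normalized count + 1) minus the gene's mean, for the uneven and the even motile cilium genes and for 5 other lists, in each library (3xCR orange, GPC6 blue, shared vertical axis). GPC6 replicate 1 is highest for the uneven members, ependymal, choroid plexus and pan-neuronal genes and lowest for proliferation genes. The even members stay near 0 in all libraries. Uneven and even members were divided by their range in these libraries, so their contrast follows in part from that choice.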

How the data were processed

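Bulk RNA was sequenced from 7 tumor brains, 3 of the 3xCR and 4 of the GPC6 group, from stranded poly(A) libraries. Sample labels gave each library's group and replicate number. According to the submitters' processing notes and the methods, the authors checked reads with FastQC, aligned them to mm10 with STAR 2.5.0a, counted them per gene with Rsamtools and GenomicFeatures and normalized with DESeq2 1.20.0. The deposited values are a normalized signal on a linear scale, in which each library's counts were divided by its size factor. How reads matching more than one gene were counted is not given in the sources used here. All 7 columns were used and 0 others held values per sample. Of 19282 entries, 25 had become dates and were left out (0.254% to 0.361% of reads).

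Whole reads were recovered for 100% of values, within 0.01 of a whole number, so a count of 3 reads was worth 1.64 to 4.64 normalized counts. Groups were compared with limma 3.58.1 (R 4.3.3) with a variance trend on log2(normalized count + 1), for genes with a mean of at least 10, two-sided, with Benjamini-Hochberg adjustment over all genes tested. A fold change on this scale understates the change of genes with few counts. edgeR 4.0.16, DESeq2 1.42.0 and voom were run on the recovered reads as alternatives, beside other pseudocounts, filters, scalings, library weights, a replicate block and fits without each library. Simulated data were used to test limma, edgeR, DESeq2 and voom, but not the other alternatives. For single genes an exact permutation test was used over the 35 assignments of libraries. Exon lengths and shared sequence came from the GENCODE annotation and transcripts of GRCm38, and promoters from RefSeq on GRCm38.p6.

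The members, their roles and all gene lists were chosen with earlier results of these data known. Named were Foxj1, Hydin, Ak7, Spef1 and Spef2, in each role or list the most abundant gene and those of highest and lowest fold change, any member past the unadjusted threshold or with groups that did not overlap, every regulator of multiciliation, and each member under the filter. Further members and markers (among them Rsph1, Dnah6, Dnah8, Dnah10, Dnaaf5, Tekt4, Tekt2, Cfap70, Tmem212, Pifo, Mlf1, Rarres2, Sntn and Stoml3) were named after their values were seen. One of the genes targeted in the tumors is not reported here.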

Additional observations from a re-analysis of the deposited data

Results flagged for a closer look

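Of 54 quantities looked at within the 4 GPC6 tumors (34 members and the medians of gene lists among them), 3 had 1 tumor far from the other 3 by Dixon's criterion, in which the gap to the nearest tumor is divided by the whole range. Chance alone gives about 1 in 20, or 2.7 of 54.

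Dnah7a, an inner arm motor, was at 2.96 normalized counts in GPC6 replicate 2 and at 13.4 to 16 in the other GPC6 tumors, and this value rests on 3 reads. The hypothalamic neuron markers had a median of 6.66 log2 units above their means in GPC6 replicate 1, where the other GPC6 tumors were between -0.85 and 0.26. The proliferation markers had a median of -2.87 in GPC6 replicate 1 and of 0.35 to 1.00 in the other GPC6 tumors. The second and the third of these are from the tumor in which 21 of the 34 tested motile cilium genes were highest, and their part in that was not tested.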

How the results depend on the processing

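Among the alternatives, 0 members passed the unadjusted threshold except in DESeq2, with no filter and with no variance trend, which each gave 1, and with library weights, which gave 9. The weights gave 1962 genes past the adjusted threshold and DESeq2 gave 4, where limma, edgeR and voom gave 0 (689, 991 and 499 genes at an unadjusted p under 0.05). The weights relied on 3xCR replicate 3 and GPC6 replicate 3, at 8.71 and 4.47 against 0.301 to 0.849 for the other libraries. The 1 member past the threshold was Spef1 in DESeq2 and without a variance trend, and with no filter Cfap58, which is not among the 34 and rests on few reads. DESeq2's 4 genes (D830030K20Rik, Met, Nupr1 and Rn45s) held no member. Members whose groups did not overlap numbered 2 with equal totals (5.88%, beside 6.21% of all genes) and 2 of 49 with no filter (4.08%, beside 5.69%). They numbered 1 to 6 when 1 library was left out, with 6 without 3xCR replicate 2 (17.6%, beside 20.9% of all genes), 3 without 3xCR replicate 4 (8.82%, beside 7.92%), 3 without GPC6 replicate 3 (8.82%, beside 9.14%) and 2 without GPC6 replicate 4 (5.88%, beside 14.4%).

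The median log2 fold change of the members moved by less than the spread between tumors in every alternative, but its sign turned without GPC6 replicate 1 (-0.19) and with a filter at a mean of 50 (-0.01, 11 members). Without GPC6 replicates 1 and 2 together, an alternative chosen after seeing the data, it was -0.01. Samples with the same number did not deviate together in every pair (correlations of -0.19, 0.12 and 0.30 over genes), nor did each correlate best with its own number, so the numbers were not taken to pair the brains. The replicate block left GPC6 replicate 1, which has no partner, without weight and gave a median of -0.19, with 10 of 34 members higher and 0 past the threshold. The depth of the smallest library, where a count of 0 allows 4.64 normalized counts, limits what can be said of the 15 members below the filter.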

Other observations

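Microglia and macrophage markers were lower in mean in GPC6 tumors for 9 of 9 genes, with a median log2 fold change of -0.84 (-0.52 without GPC6 replicate 1). The unadjusted test passed 3 of them as lower, where it passed 1.92% of all genes, and no gene passed after adjustment. Tmem119, a marker of resident microglia, was at 1378, 1607 and 2456 normalized counts in 3xCR replicates 2, 3 and 4 and at 753, 792, 1186 and 683 in GPC6 replicates 1 to 4 (-1.08 ± 0.28, SE, limma, unadjusted p = 0.0055). Tmem119, C1qa (-1.07) and Aif1 (-1.31) had groups that did not overlap, as did 3.52% of all genes in that direction. Csf1r, the receptor these cells need to survive, had the smallest difference, -0.18. None of the 9 was highest in GPC6 replicate 1, the tumor with the highest summed level of motile cilium genes.

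The other cell types were read in the same way. Astrocyte genes had a median of 0.11, from -0.63 for Aqp4 to 1.05 for Slc1a2, with Gfap the most abundant. Oligodendrocyte genes had a median of -0.67, with 7 of 8 lower, from -1.15 for Mbp to 0.11 for Cldn11. Progenitor genes of the glioma had a median of 0.08, with the lowest difference -0.25 for Nes and Olig1 the most abundant. Endothelial genes had a median of 0.32, and 1 of 6, Flt1, passed the unadjusted test as higher, beside 2.74% of all genes (0.92 ± 0.33, SE), while Ly6c1 was lowest at -0.70 and Cldn5 was the most abundant. Tanycyte genes had a median of -0.01, with the lowest difference -0.23 for Dio2 and Crym the most abundant. Proliferation genes had a median of -0.61, from -1.10 for Birc5 to -0.33 for Pcna, and 0.21 without GPC6 replicate 1. Hypothalamic neuron genes had a median of 2.44 and 0.41 without GPC6 replicate 1, from Pomc at 0.19 to Avp at 3.26. Of germ cell genes, checked because sperm tails use many of the same proteins, only Gapdhs was tested (0.40), and of secretory cell genes only Scgb3a1 (-0.76).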
